A study of Mus musculus with 9 samples.

Results

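The 9 genes described here are the myogenic regulatory factors Myod1, Myog, Myf5 and Myf6, the MEF2 transcription factors Mef2a, Mef2c and Mef2d, and the upstream factors Pax7 and Six4. They were taken by symbol from the 53700 Ensembl gene IDs of the count table, and each symbol matched 1 ID. All 9 passed the filter on low counts that left 18415 genes, and none had fewer than 9 counts in any library. RNA was measured in C2C12, an immortalized line of mouse myoblasts, muscle precursors that proliferate with serum and form multinucleate myotubes without it. Cells were grown in DMEM/F12 with 10% fetal bovine serum, moved to OPTI-MEM, and starved for 12 h, and this start was common to all 3 groups. Control cells were collected at the end of the starvation. Valine cells were kept for another 36 h with the branched-chain amino acid valine at 0.45 mM. Val+PA cells had the same dose of valine for 24 h, and then a treatment of 12 h with the saturated fatty acid palmitic acid at 75 µM. Whether valine was still present in that last treatment is not said in the labels.

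Each group was 1 plate of 6 wells, of which 3 were sequenced, so there are 9 libraries from 1 cell line. The p-values therefore measure the spread between wells of a plate, and plate cannot be told apart from treatment. No later cells without valine are among the groups, so in both comparisons with Control the treatment cannot be told apart from the longer time in low serum.

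The 4 myogenic regulatory factors are basic helix-loop-helix proteins that bind the E-box as dimers with E-proteins and switch on the muscle programme. Myf5 and Myod1 commit cells to the lineage, Myog drives their terminal differentiation, and Myf6 acts late and in mature fibres. MEF2 proteins are MADS-box factors that bind AT-rich sites next to E-boxes and act together with the myogenic factors, Pax7 marks satellite cells, the muscle stem cells, and Six4 is a homeobox factor that binds the MEF3 site in muscle promoters.

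The promoter of Myog is where these protein families meet in sequence, so the 250 bases before its start are shown first, with those of Myf5, the member with the highest signal per length, for contrast. Sequences are from RefSeq on GRCm38.p6, written 5′ to 3′ on the gene's strand. Capitals mark, in order, an E-box (CANNTG) at -138 from the start site, a MEF3 match (TCAGGTT) at -84, a MEF2 core at -64 and a further E-box at -12. The MEF2 core was searched as CTA, then 4 bases that are each A or T, then TA, a form chosen after the Myog sequence had been read.
Myog, chr1:134289754-134290003, plus strand: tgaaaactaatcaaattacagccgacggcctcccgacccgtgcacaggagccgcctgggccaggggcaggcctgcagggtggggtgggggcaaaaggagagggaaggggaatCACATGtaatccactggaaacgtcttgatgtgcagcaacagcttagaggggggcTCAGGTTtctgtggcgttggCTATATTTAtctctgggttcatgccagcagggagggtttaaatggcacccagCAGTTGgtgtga
Myf5, chr10:107486135-107486384, minus strand: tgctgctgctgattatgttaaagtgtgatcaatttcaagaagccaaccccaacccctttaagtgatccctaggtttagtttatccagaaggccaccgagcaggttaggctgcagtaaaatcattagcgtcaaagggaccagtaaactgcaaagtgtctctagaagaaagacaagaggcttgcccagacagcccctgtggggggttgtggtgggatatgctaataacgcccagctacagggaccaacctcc
The Myf5 window held no match to any of the 3 motifs on either strand.

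All 3 motifs were searched on both strands in 32851 RefSeq promoter windows of 300 bases (250 before and 50 after the start). An E-box was in 72.3% of these windows, a MEF2 core in 3.6%, a MEF3 match in 4.07%, and all of them together in 0.107%, which is 35 windows. The table held 10 windows for 7 of the members, 3 of them for Mef2c and 2 for Six4. Mef2a held a MEF2 core across its start site, with overlapping matches on both strands. Six4 and Mef2c each held a MEF3 match on the reverse strand, at -97 and -248, in 1 window each. Mef2c also held E-boxes, at -234 and -100 in the window of its MEF3 match and at -245 in another window. Stretches of 30 bases around the MEF2 and MEF3 matches read as follows, with only these matches in capitals and the E-box at -234 in lower case.
Mef2a, chr7:67372841-67372870, minus strand: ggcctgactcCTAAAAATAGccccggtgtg
Six4, chr12:73113323-73113352, minus strand: gcctgggggaAACCTGAtcggccagatcca
Mef2c, chr13:83503784-83503813, plus strand: atAACCTGAaatgaagcaagtgtgtgctat
The Mef2d and Pax7 windows held none of the motifs, and a match is a stretch of letters, not a measured binding site.

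The libraries held between 26750226 and 35976589 counts, and a single count came to 0.0271 to 0.0403 CPM (count over the TMM-scaled library total, the scale of levels throughout). Both Control 3 and Val+PA 2 were unlike their replicates. They had 1230 and 865 CPM of mt-Co1, a transcript of the mitochondrial genome, where the other 7 had 2930 to 5300 CPM. In Val+PA 2 genes with GC-rich transcripts (at least 52.8% GC) lay 0.50 (log2) higher against their group mean than those with GC-poor transcripts (at most 46.6%), while in Val+PA 1 the same difference was -0.31. Most results that rest on these libraries are given with and without them. They were left out because they stood apart, which narrows the spread, so p-values without them can be too small. Markers of the myoblast were present, with 9 of the 10 on the list past the filter and Chodl at 0, and their summed level was 2720 to 3040 CPM in Control, 3830 to 4010 CPM in Valine and 3680 to 5630 CPM in Val+PA. Des and Itga7 made up most of that sum, while Sdc4 was at 183 to 256 CPM in Control and 65.4 to 73.5 CPM in Valine, and Met at 260 to 317 and 193 to 207 CPM. Fibroblast and fibro-adipogenic markers moved too, with 8 of 10 past the filter, Tcf21 at 0, and sums of 1400 to 1980, 4000 to 4140 and 3740 to 5150 CPM. Col3a1, Ly6a and Fbn1 made up most of these sums. The list did not move as a whole: Pdgfra was at 8.63 to 9.55 CPM in Control and 9.91 to 11.5 CPM in Valine, and Dcn at 4.51 to 13.1 and 239 to 264 CPM. Of the adipocyte list 1 of 6 passed, its sum stayed at or below 0.651 CPM in every library, and Adipoq, Lep and Retn were at 0. The part of these other markers in the results below was not tested. In bulk RNA, fewer cells of a type and less RNA per cell cannot be told apart.

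Across the 9 genes, 6 were called higher in Valine than in Control and none lower, where a call is a Benjamini-Hochberg adjusted p below 0.05 in the edgeR quasi-likelihood test over all genes. Of all genes tested 41.9% were called, 20.8% higher and 21.1% lower. Myog rose 14.1-fold, Myf6 2.06-fold, Myf5 2.02-fold, Mef2c 1.64-fold, Six4 1.63-fold and Mef2a 1.56-fold, and the calls did not include Myod1, Mef2d and Pax7. Group ranges did not overlap for 7 of the 9, against 59.0% of all genes. The median log2 fold change was 0.71 over the members and -0.00 over all genes.

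In Val+PA against Control, 4 members were called higher and none lower, with 39.2% of all genes called, 20.4% higher and 18.8% lower. These were Myog (10.7-fold), Myf6 (2.15-fold), Six4 (1.37-fold) and Myf5 (1.34-fold). Group ranges did not overlap for 4 of 9 members, against 45.5% of genes, and the members' median log2 fold change was 0.25 against -0.00. Both comparisons share the Control libraries, so the overlap of their calls is not a separate result.

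**Figure D1:**
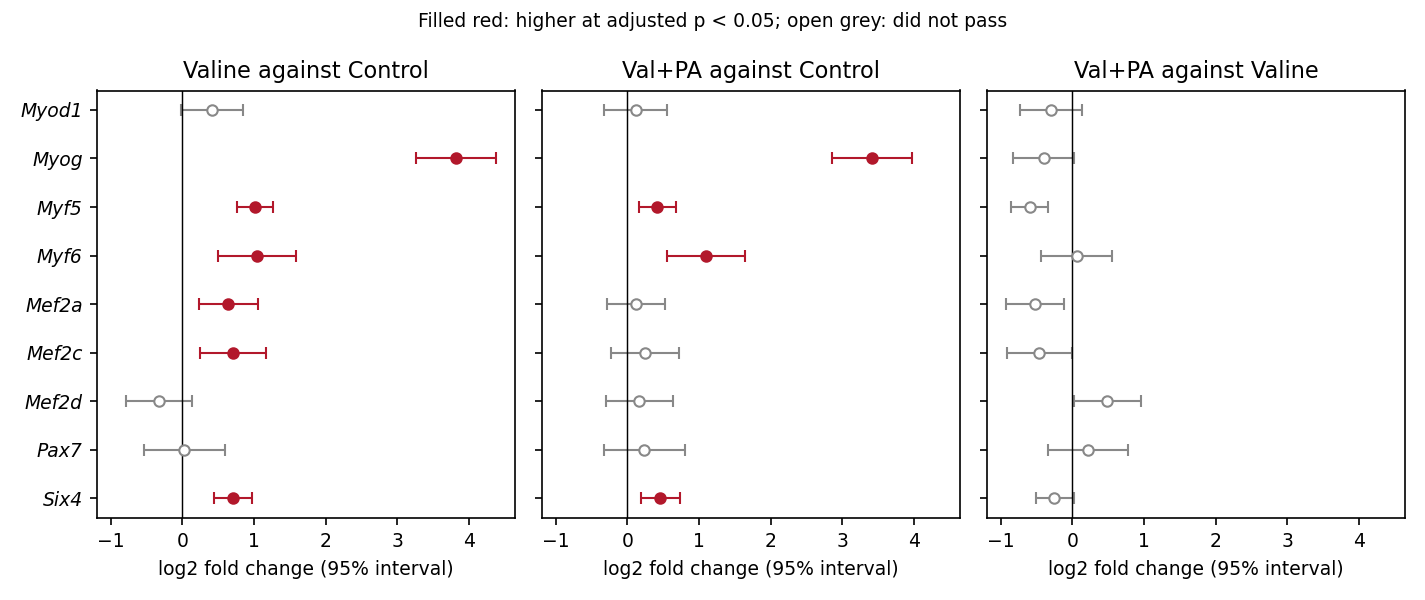
Log2 fold changes of the 9 genes in Valine against Control, Val+PA against Control and Val+PA against Valine, as points with 95% intervals from the edgeR quasi-likelihood fit and filled red symbols for an adjusted p below 0.05 and open grey ones for the rest. Myog lies at 3.82 and 3.41 above Control, and no gene is called between Val+PA and Valine.

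Myog, on chromosome 1 at 134289989-134292548 of GRCm38 (ENSMUSG00000026459, plus strand), codes for myogenin, whose loss in mice blocks the formation of muscle fibres. Its level was 0.673, 0.425 and 0.362 CPM in the Control libraries, 7.47, 7.07 and 6.45 CPM in Valine and 5.08, 6.60 and 4.20 CPM in Val+PA. Every treated library was far above every Control library, and the Valine and Val+PA libraries overlapped. The log2 fold change was 3.82 (SE 0.26, edgeR quasi-likelihood test, adjusted p = 6.25e-07) for Valine and 3.41 (SE 0.26, adjusted p = 1.35e-06) for Val+PA. Control libraries held 9 to 21 Myog counts, so the size of the fold rests on few reads. Over the 9 libraries left out in turn, it ran from 3.67 to 4.12 and from 3.23 to 3.72, and it was 3.67 and 3.08 without both Control 3 and Val+PA 2. On the log2 scale of the deposited signal plus 1, which understates the change of a low gene, it was 2.70 and 2.32, also called by limma (adjusted p = 9.72e-06 and 1.7e-05).

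Myf6, also called MRF4, lies beside Myf5 on chromosome 10 (107492853-107494737, minus strand, ENSMUSG00000035923). It was at 0.513, 0.668 and 0.564 CPM in Control, at 1.20, 1.16 and 1.26 CPM in Valine, and at 1.19, 1.12 and 1.45 CPM in Val+PA. The treated libraries were about alike and all above Control. With 14 to 22 counts per Control library and 35 to 47 per treated library, the log2 fold change was 1.04 (SE 0.25, edgeR adjusted p = 0.00529) for Valine and 1.10 (SE 0.25, adjusted p = 0.00401) for Val+PA.

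Myf5, the earliest of the family in the embryo (chromosome 10, 107482908-107486134, minus strand, ENSMUSG00000000435), was the member with the highest signal per length, though not in CPM, where the longer Mef2a was above it. It was at 31.7, 39.7 and 31.2 CPM in Control, at 64.9, 71.3 and 71.5 CPM in Valine, and at 48.0, 42.4 and 47.1 CPM in Val+PA. The groups were fully separate, with Val+PA in between. Against Control the log2 fold change was 1.02 (SE 0.12, edgeR adjusted p = 3.53e-05) for Valine and 0.42 (SE 0.12, edgeR adjusted p = 0.0133) for Val+PA. The latter lost its call when Control 1 was left out (0.37, edgeR adjusted p = 0.0603), and it was 0.41 with an adjusted p of 0.00198 when Control 3 and Val+PA 2 were both left out.

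Myod1, the factor that turns fibroblasts into muscle when forced on (chromosome 7, 46376474-46379099, plus strand, ENSMUSG00000009471), was at 7.37, 7.90 and 9.59 CPM in Control. It was at 11.2, 9.74 and 12.3 CPM in Valine and at 6.19, 10.5 and 10.3 CPM in Val+PA. Each Valine library was above each Control library, and Val+PA overlapped both groups, with Val+PA 1 the lowest of all 9. In Valine the log2 difference was 0.42 with a 95% interval of -0.02 to 0.85 (edgeR adjusted p = 0.112), and it was not called. It passed without Val+PA 1 (0.42, edgeR adjusted p = 0.036), without both Control 3 and Val+PA 2 (0.54, adjusted p = 0.0136), with the Valine and Control libraries fitted alone (adjusted p = 0.0329) and with a GC trend removed per library (0.59, adjusted p = 0.00899), the last an alternative added after the data had been seen. In Val+PA against Control it was 0.12 (95% interval -0.32 to 0.56, edgeR adjusted p = 0.675) and turned to -0.01 without Val+PA 2.

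**Figure D2:**
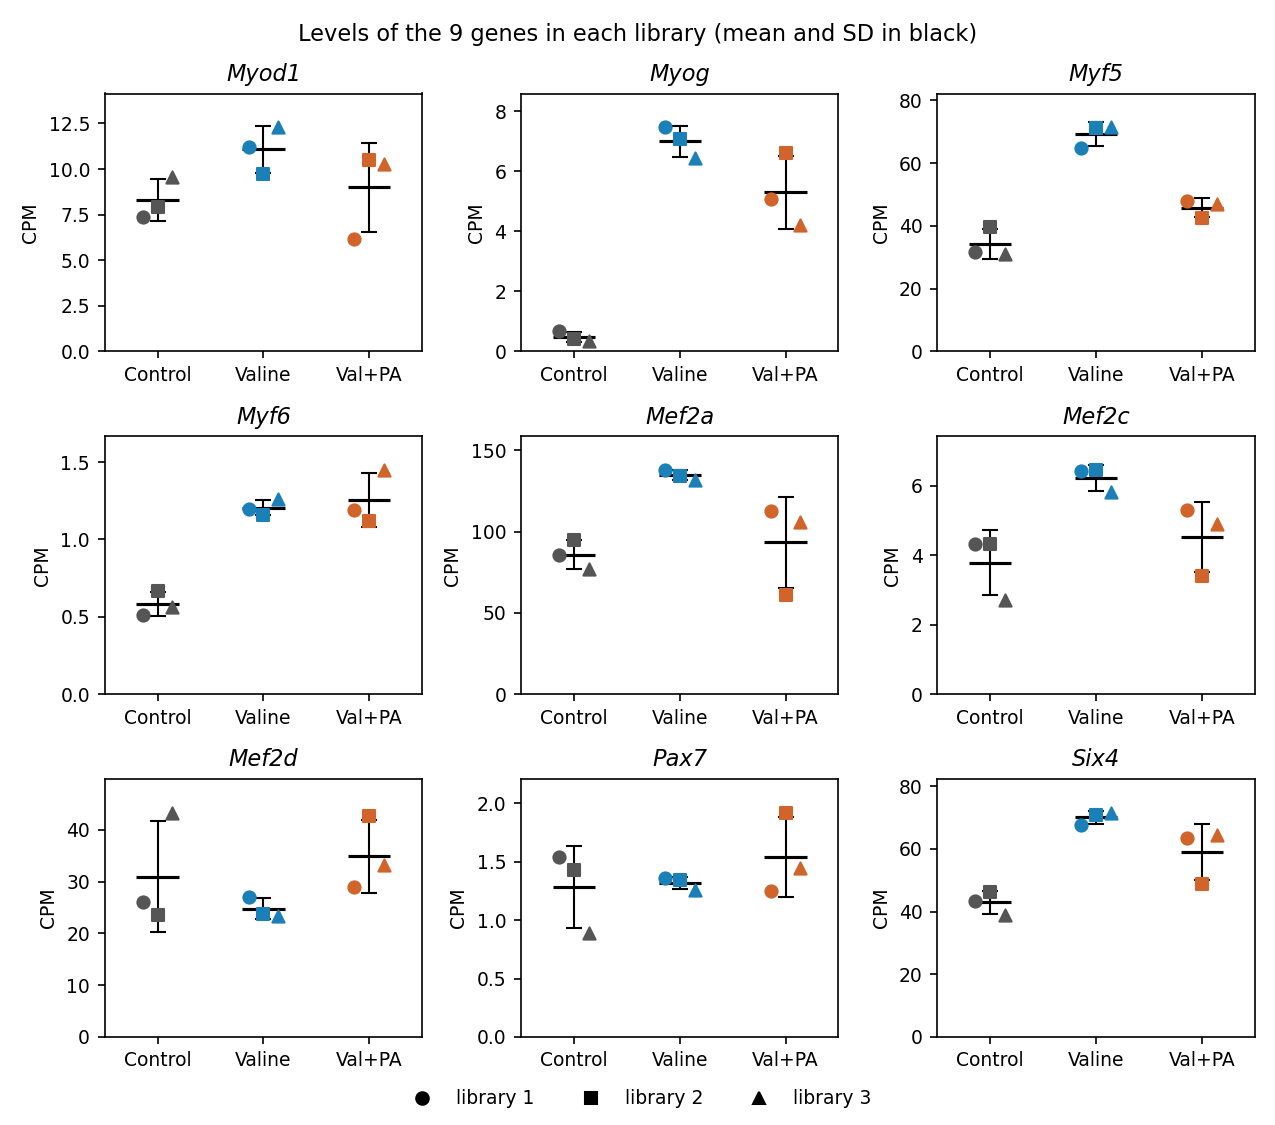
Level of each of the 9 genes in CPM after TMM scaling, 1 symbol per library, with each group's mean and SD (n = 3) in black and a separate vertical axis for each gene. Myog and Myf6 are apart from Control in both treated groups, Myf5 falls into 3 separate groups, and Mef2d and Pax7 overlap between Control and each treated group.

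Mef2a, on chromosome 7 at 67231163-67372858 (minus strand, ENSMUSG00000030557), is a main MEF2 gene of skeletal muscle, whose loss in mice damages heart mitochondria. Its level was 85.7, 94.9 and 77.1 CPM in Control, 138, 134 and 132 CPM in Valine, and 113, 61.3 and 106 CPM in Val+PA. Valine stood above all other libraries, and Val+PA 2 was the lowest of all 9. The log2 fold change in Valine was 0.64 (SE 0.18, edgeR adjusted p = 0.0146), and 0.58 (adjusted p = 1.56e-06) without Control 3 and Val+PA 2. Against Control, Val+PA differed by 0.12 (95% interval -0.28 to 0.52, edgeR adjusted p = 0.637). That became 0.35 without Val+PA 2 (edgeR adjusted p = 0.0111), 0.28 without Control 3 and Val+PA 2 (edgeR adjusted p = 0.00375) and -0.03 without Val+PA 1, so single libraries decide it. Exons of Mef2a share 302 bases with Lysmd4 on the opposite strand, which had 159 to 655 counts per library, and the strand setting of the counting is not given in the sources used here.

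Mef2c, essential for heart development and for skeletal muscle integrity in mice (chromosome 13, 83504034-83667080, plus strand, ENSMUSG00000005583), was the lowest of the MEF2 members. It was at 4.33, 4.31 and 2.70 CPM in Control, at 6.41, 6.45 and 5.80 CPM in Valine and at 5.29, 3.39 and 4.88 CPM in Val+PA. Valine was again above both other groups, which overlapped. The log2 fold change in Valine was 0.71 (SE 0.21, edgeR adjusted p = 0.0183), and 0.53 (adjusted p = 0.00338) without Control 3 and Val+PA 2. It lost its call without Valine 1 (edgeR adjusted p = 0.056), without Valine 2 (edgeR adjusted p = 0.0568) and in limma on the deposited signal (0.30, adjusted p = 0.0892, plus 1, and 0.67, adjusted p = 0.111, plus 0.1). In Val+PA against Control the difference was 0.25 (95% interval -0.22 to 0.72, edgeR adjusted p = 0.38). It was 0.07 without Control 3, and ran from 0.07 to 0.42 over the 9 libraries left out in turn.

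Mef2d, which takes part in differentiation through a muscle-specific splice form (chromosome 3, 88142372-88172086, plus strand, ENSMUSG00000001419), had no called rise. It was at 26.1, 23.5 and 43.3 CPM in Control, at 27.1, 23.8 and 23.4 CPM in Valine and at 28.9, 42.7 and 33.1 CPM in Val+PA. The 2 highest libraries were Control 3 and Val+PA 2, the 2 that stood apart. The log2 difference of Valine from Control was -0.32 (95% interval -0.78 to 0.14, edgeR adjusted p = 0.251) and was 0.00 without those libraries. Val+PA differed from Control by 0.17 (95% interval -0.29 to 0.64, edgeR adjusted p = 0.552), by 0.49 without Control 3 (edgeR adjusted p = 0.0312) and by 0.32 without both (edgeR adjusted p = 0.0161). An antisense gene, 1700113A16Rik, shares 531 exon bases with Mef2d and had 3 to 17 counts.

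Six4 (chromosome 12, 73099609-73113456, minus strand, ENSMUSG00000034460), which activates myogenic genes, was at 43.5, 46.4 and 38.9 CPM in Control, at 67.7, 70.9 and 71.6 CPM in Valine and at 63.6, 48.8 and 64.6 CPM in Val+PA. All treated libraries were above Control, and Valine was above Val+PA, whose lowest was again Val+PA 2. The log2 fold change was 0.71 (SE 0.12, edgeR adjusted p = 0.000695) in Valine and 0.46 (SE 0.12, adjusted p = 0.0107) in Val+PA, where it was 0.51 without Control 3 and Val+PA 2.

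Pax7 (chromosome 4, 139737062-139833528, minus strand, ENSMUSG00000028736) was low in all groups, at 1.54, 1.43 and 0.886 CPM in Control, 1.36, 1.34 and 1.26 CPM in Valine and 1.25, 1.92 and 1.45 CPM in Val+PA. The groups overlapped. The log2 difference from Control was 0.02 (95% interval -0.54 to 0.59) in Valine and 0.24 (95% interval -0.32 to 0.81) in Val+PA (edgeR adjusted p = 0.948 and 0.489). These intervals still hold rises of up to 0.59 and 0.81. Both log2 differences took the other sign without Control 3 and Val+PA 2, at -0.16 and -0.13. On the quiescent satellite cell list, of which Pax7 is a member, 4 of 6 markers passed the filter and Calcr was at 0. Its summed level went from 53.8 to 59.2 CPM in Control to 190 to 196 CPM in Valine and 190 to 210 CPM in Val+PA, most of it Cd34 (47.9 to 51.5, 174 to 183 and 174 to 198 CPM), which is also on the fibroblast list.

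The contrast of Val+PA with Valine, which differ by the palmitic acid of the last 12 h and possibly by the length of valine exposure, gave no called member, and the share of all genes called was 0%. At an unadjusted p below 0.05 there were 4 of 9 members, against 13.2% of genes (2428), and group ranges did not overlap for 5 of 9, against 24.6%. Myf5 was lower in 3 of 3 Val+PA libraries than in any Valine library, with a log2 difference of -0.59 (95% interval -0.85 to -0.34, edgeR unadjusted p = 0.000271, adjusted p = 0.192). Mef2a differed by -0.52 (95% interval -0.92 to -0.12, edgeR adjusted p = 0.33) and Mef2c by -0.46 (95% interval -0.91 to -0.00, edgeR adjusted p = 0.377). Mef2d differed the other way, by 0.49 (95% interval 0.03 to 0.96, edgeR adjusted p = 0.365). Over the 9 libraries left out in turn, Mef2c ran from -0.59 to -0.29 and Mef2d from 0.32 to 0.61. These 4 and Six4 (-0.25, 95% interval -0.51 to 0.02) were the 5 whose ranges were apart. Intervals of the other members all held 0, and ran from -0.73 to 0.13 for Myod1, from -0.83 to 0.03 for Myog, from -0.44 to 0.55 for Myf6 and from -0.34 to 0.77 for Pax7.

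In Val+PA against Valine, edgeR still called 0 genes with each of the 9 libraries left out in turn, and with the other scalings. Some other settings did give calls. DESeq2 called 212 genes, among them Myf5 (-0.60, DESeq2 adjusted p = 0.00229) as the 1 member, and limma-voom called 0 genes. With no filter on low counts, edgeR called 763 genes, with Myf5 (adjusted p = 0.00285) and Mef2a (0.00684) lower and Mef2d (0.0352) higher. Their log2 differences were nearly the same as with the filter, but the estimated spread was not. The SE was 0.14 for Myf5, 0.13 for Mef2a and 0.15 for Mef2d, against 0.12, 0.18 and 0.21 with the filter. Without both Control 3 and Val+PA 2, edgeR called 604 genes, with Myf5 (-0.54, edgeR adjusted p = 0.00362), Mef2a (-0.30, 0.0214) and Myog (-0.59, 0.044) lower. The Mef2a difference was smaller than with these libraries. Control 3 is in neither group of this contrast and enters only through the shared fit, and these p-values can be too small, as said above. With the GC trend removed, 8 genes were called and no member, and Myf5 was at -0.38, Mef2a at -0.37 and Mef2d at 0.27.

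**Figure D3:**
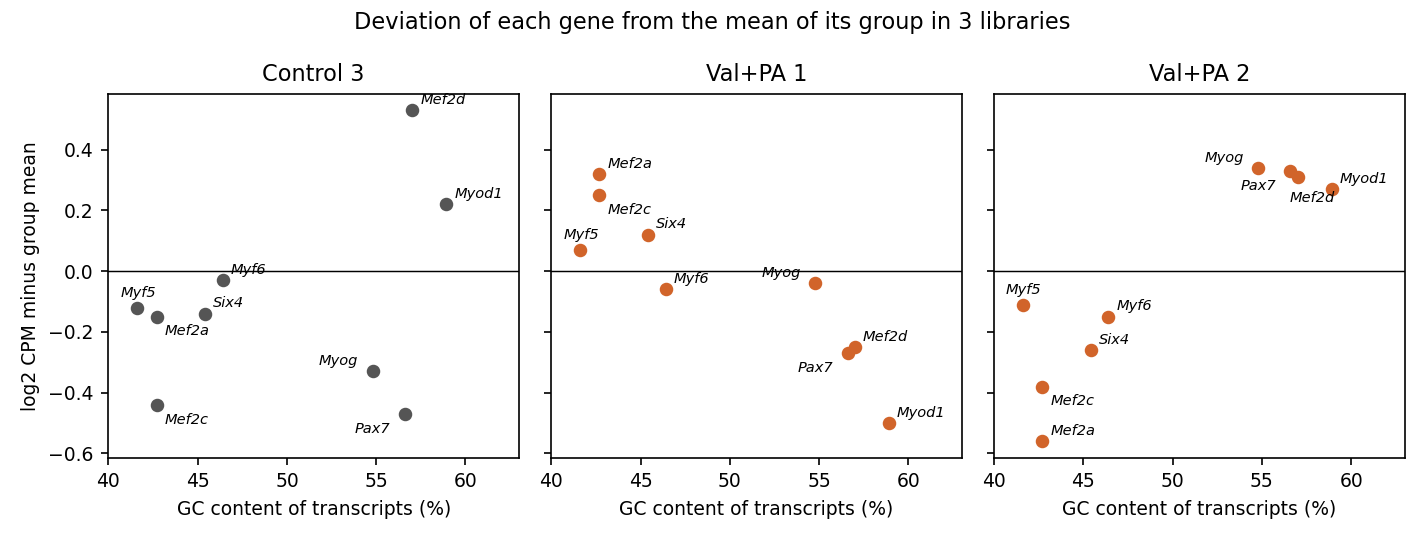
Deviation of the 9 genes from their group mean (log2 CPM) in Control 3, Val+PA 1 and Val+PA 2, against the GC content of each gene's transcripts in percent. In Val+PA 2 the 4 GC-rich members lie above the group mean and the 5 GC-poor members below it, and in Val+PA 1 the 4 GC-rich members lie below it.

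GC content divided the members in some libraries. Transcripts of Myod1 (58.9% GC), Mef2d (57.0%), Pax7 (56.6%) and Myog (54.8%) were GC-rich (at least 52.8%, as above). Those of Myf6 (46.4%), Six4 (45.4%), Mef2a (42.7%), Mef2c (42.7%) and Myf5 (41.6%) were GC-poor (at most 46.6%). In Val+PA 2, 4 of 4 GC-rich members were above the group mean, from 0.27 for Myod1 to 0.34 for Myog, and 0 of 5 GC-poor members were, down to -0.56 for Mef2a. In Val+PA 1 it was 0 of 4 and 4 of 5, with Myod1 at -0.50 and Mef2a at 0.32. In Control 3 it was 2 of 4 and 0 of 5, with Mef2d at 0.53 and Myod1 at 0.22 but Pax7 at -0.47 and Myog at -0.33. Control 2 and Val+PA 3 each had 1 of 4 and 5 of 5, and Control 1 had 2 of 4 and 2 of 5. Valine 1 had 4 of 4 and 2 of 5, at a library difference of only -0.03. Valine 2 had 2 of 4 and 3 of 5, and Valine 3 had 1 of 4 and 3 of 5. Deviations within a group are tied by their common mean, so its libraries are not separate observations. The part of base composition in these differences was not tested beyond the trend removed above.

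Levels of different genes were compared on the deposited signal, which is relative to gene length. In Control the order was Myf5 (33.7 ± 5.67, SD, n = 3), Mef2a (12), Mef2d (10.5), Myod1 (9.08), Six4 (8.1), Myf6 (0.943), Myog (0.667), Mef2c (0.494) and Pax7 (0.45). Myf5 stood above all others in every library, and from Mef2a to Six4 the neighbours' ranges overlapped, as they did from Myf6 to Pax7. In Valine the order of mean signal was Myf5 (69.6), Mef2a (19.2), Six4 (13.5), Myod1 (12.5), Myog (9.81), Mef2d (8.67), Myf6 (2), Mef2c (0.83) and Pax7 (0.472). Myog had thus passed Myf6 and its range overlapped that of Mef2d, while Six4 and Myod1 overlapped each other. In Val+PA the mean signal of Myog was 7.39, next below Myod1 at 10.1, and neighbours from Mef2a to Myog overlapped.

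The summed signal of the 4 myogenic factors went from 44.3 ± 5.58 (SD, n = 3) in Control to 93.9 ± 2.89 in Valine, with 65.5 ± 1.78 in Val+PA. Myf5 made up most of it, with shares of 75.7% ± 3.55, 74.1% ± 1.8 and 70.2% ± 5.02. The Myog share was 10.5% ± 1.13 in Valine and 11.3% ± 2.67 in Val+PA, both apart from the 1.53% ± 0.621 of Control. Myod1 made up 20.7% ± 3.66, 13.3% ± 1.46 and 15.4% ± 3.95, and its Valine range was below that of Control. Myf6 made up 3.17% ± 0.382 in Val+PA, above its 2.12% ± 0.0858 in Control and its 2.13% ± 0.0816 in Valine. In each of these separated pairs the two-sided exact permutation p was 0.1, the smallest that 3 against 3 allows, and 0.191 when adjusted over the 21 share comparisons made. A share also moves with the rest of the sum. The Myf6 level itself differed by 0.06 (log2, edgeR adjusted p = 0.919) in Val+PA against Valine. The Myod1 level was 0.42 (log2) above Control in Valine, not called, while its share was lower.

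Per library, Control had Myog to Myod1 signal ratios of 0.114, 0.0671 and 0.0471, while Valine had 0.833, 0.903 and 0.654 and Val+PA had 1.02, 0.779 and 0.51. Control was below all treated libraries, and the treated groups overlapped.

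Within the MEF2 members, Mef2a and Mef2d made up nearly all of the summed signal, which leaves out a further MEF2 gene, Mef2b. The sum was 23 ± 1.83 for Control, 28.7 ± 1.32 for Valine and 26.1 ± 1.83 for Val+PA. The Mef2a share of the Control libraries was 55.7%, 60.6% and 41.5%, that of the Valine libraries 65.5%, 67.5% and 67.7%, and that of the Val+PA libraries 59.7%, 36.3% and 55.4%. Valine was above both other groups in every library and had the smallest spread. The differences were 14.3 points from Control and -16.5 points for Val+PA against Valine, each with an exact permutation p of 0.1 (0.191 adjusted), and they were 8.78 without Control 3 and -9.35 without Val+PA 2. The Mef2d share mirrored it, at 45.2% ± 10.6, 30.2% ± 1.27 and 47.2% ± 12.9 (SD, n = 3), with differences of -15 points for Valine against Control and 17.1 for Val+PA against Valine, which were -9.07 without Control 3 and 9.75 without Val+PA 2. The Mef2c share was 2.19% ± 0.717, 2.89% ± 0.133 and 2.29% ± 0.381, also apart in Valine, with differences of 0.708 and -0.603 points that were 0.294 and -0.395 without the same libraries. Ratios of Mef2a to Mef2d signal were 1.34, 1.64 and 0.727 for Control, 2.07, 2.29 and 2.3 for Valine, and 1.59, 0.586 and 1.31 for Val+PA. Only in Control 3 and Val+PA 2 was Mef2d the more abundant of the pair.

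**Figure D4:**
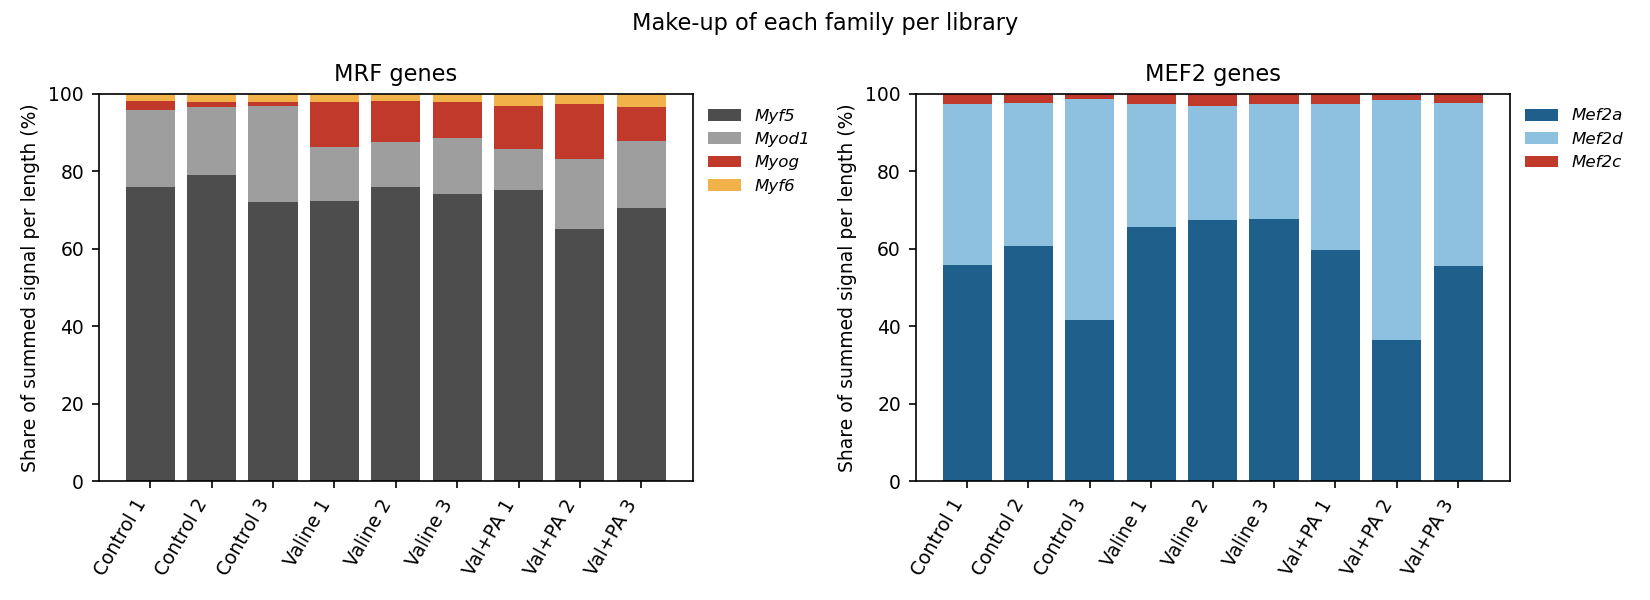
Share of each gene in the summed per-length signal of its family's members, in percent, as stacked bars for the 9 libraries. The myogenic regulatory factors and the MEF2 members are in separate panels. Myf5 is the largest share in all 9 libraries, the Myog share is 1.17% to 2.25% in Control and 8.76% to 14.1% in the treated libraries, and Mef2d exceeds Mef2a only in Control 3 and Val+PA 2.

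Around the members, most measured regulators upstream of them rose in Valine. Of 18 genes on this list 10 passed the filter, and 7 were called higher and 1 lower in Valine (median log2 fold change 0.48), and 5 and 1 in Val+PA (0.25), beside a median of -0.00 over all genes and the shares of called genes given above. Six5 had the largest rise in Val+PA (0.99, edgeR adjusted p = 0.00081). Eya3, a phosphatase and co-activator of Six4 and its relatives, fell by 0.44 (log2) in Valine and by 0.39 in Val+PA (edgeR adjusted p = 0.00515 and 0.0102). Pax3, Six2, Eya2, Dach1, Dach2, Pitx3, Tcf21 and Barx2 were below the filter.

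Of the 3 E-proteins, with which the myogenic factors bind DNA, 1 was called in Valine and 0 in Val+PA (median log2 fold changes 0.30 and -0.05), no more than the 41.9% and 39.2% of all genes. Tcf4 rose in Valine, from 110 ± 2.99 to 142 ± 1.62 CPM (log2 fold change 0.37, edgeR adjusted p = 0.0145), and was at 114 ± 14.9 CPM in Val+PA. Tcf3 (-0.33, edgeR adjusted p = 0.0799) and Tcf12 (0.30, edgeR adjusted p = 0.121) were not called in Valine, and none of the 3 was called in Val+PA against Control, where their log2 differences ran from -0.08 to 0.05.

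Inhibitors of the myogenic factors went both ways, with 6 of 15 measured genes called higher and 6 lower in Valine, and 6 and 4 in Val+PA (medians 0.38 and 0.33). Of all genes, 20.8% were higher and 21.1% lower in Valine, and 20.4% and 18.8% in Val+PA. Id proteins hold E-proteins in dimers that cannot bind DNA. Id2 fell by 2.37 (log2) in Valine and by 2.67 in Val+PA, from 7.51 ± 1.3 CPM in Control to 1.45 ± 0.36 and 1.17 ± 0.35 CPM (edgeR adjusted p = 1.52e-05 and 7.37e-06). Id1 fell by 1.47 in Valine and fell by 1.24 in Val+PA (log2; edgeR adjusted p = 0.000103 and 0.000367). Id3 was not called, at 0.38 and 0.33, and Id4, Twist1 and Mdfi were below the filter. Heyl, a Notch target that represses transcription, rose from 1.48 ± 0.271 CPM to 8.32 ± 0.28 CPM in Valine and 6.89 ± 1.04 CPM in Val+PA (log2 fold changes 2.48 and 2.20, edgeR adjusted p = 1.22e-06 and 2.68e-06). Hes1, also a Notch target and named after its values were seen, moved the opposite way and fell by 1.39 (log2) in Valine and by 1.37 in Val+PA (edgeR adjusted p = 4.68e-06 and 4.94e-06). Hey1, another Notch target named in the same way, rose like Heyl, by 2.30 (log2) in Valine and by 1.99 in Val+PA (edgeR adjusted p = 6.77e-07 and 1.76e-06).

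The list of 20 cofactors and kinases of MEF2 also held Mef2b, a MEF2 gene that is not a member. On it, 5 were called higher and 3 lower in Valine, and 5 and 2 in Val+PA (medians 0.12 and 0.08). These counts were close to the 41.9% and 39.2% of all genes called. Mef2b, named after its values were seen, was below Mef2c, at 0.135 ± 0.052, 0.32 ± 0.132 and 0.523 ± 0.379 CPM in Control, Valine and Val+PA. It was called in Val+PA against Control (log2 fold change 1.91, edgeR adjusted p = 0.0288), with 12 counts over the Control libraries. Carm1, an arginine methyltransferase that co-activates MEF2, fell by 0.66 (log2) in Valine and by 0.48 in Val+PA (edgeR adjusted p = 0.000661 and 0.00559). Mamstr, a co-activator of MEF2 in muscle, had 1 count over the 3 Control libraries, 28 in Valine and 33 in Val+PA. Hdac9, a class IIa deacetylase that represses MEF2 and is itself a MEF2 target, was named after its values were seen and rose from 15.7 ± 0.301 to 46.4 ± 2.01 and 43.7 ± 2.51 CPM (log2 fold changes 1.57 and 1.48, edgeR adjusted p = 4.85e-07 and 6.53e-07).

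Target genes of the myogenic factors and MEF2 had the highest medians of the 5 lists, at log2 fold changes of 1.44 in Valine and 1.39 in Val+PA. The median over all genes was -0.00 in both. Of 29 measured, 19 were called higher and 2 lower in Valine, and 19 and 3 in Val+PA. Of all genes, 20.8% were higher and 21.1% lower in Valine, and 20.4% and 18.8% in Val+PA. Actc1, cardiac alpha actin, which embryonic skeletal muscle also makes, rose from 0.895 ± 0.0481 to 30.3 ± 1.25 CPM in Valine and 21.3 ± 3.83 CPM in Val+PA (log2 fold changes 5.07 and 4.56, edgeR adjusted p = 1.6e-08 and 2.31e-08). Xirp1, an actin-binding repeat protein of striated muscle, fell by 1.39 in Valine and fell by 1.01 in Val+PA (log2; edgeR adjusted p = 0.000107 and 0.00104). Markers of differentiated muscle, Myog among them, all passed the filter but were low, at a summed 6.16 to 8.43 CPM in Control, 38 to 40.2 CPM in Valine and 28.2 to 41.6 CPM in Val+PA. Ckm, the creatine kinase of mature muscle, had 3 counts over the Control libraries, 63 in Valine and 51 in Val+PA. Between Val+PA and Valine no gene of the 5 lists was called, and 1 of 10 upstream, 2 of 3 E-protein, 2 of 15 inhibitor, 7 of 20 cofactor and 5 of 29 target genes had an unadjusted p below 0.05, against 13.2% of all genes. The smallest p of each list belonged to Six5 (log2 difference 0.38, edgeR adjusted p = 0.372), Tcf4 (-0.32, 0.321), Bhlhe40 (0.42, 0.271), Map2k6 (-0.61, 0.327) and Actc1 (-0.51, 0.247).

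**Figure D5:**
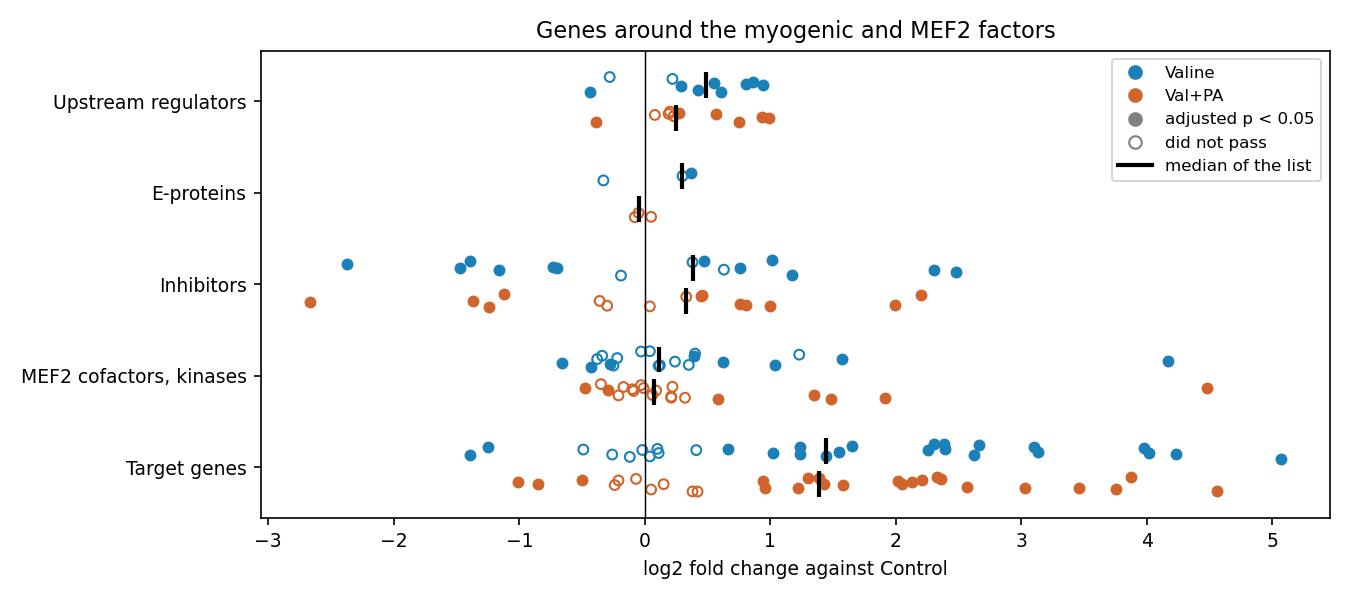
Log2 fold changes against Control for the measured genes of the 5 lists, 1 point per gene, with Valine and Val+PA side by side, called genes filled, and the list median as a line. The target list has the highest medians, 1.44 and 1.39, and the inhibitor list has called genes on both sides of 0. The rightmost cofactor point in each group is Mamstr, whose fitted value rests on 1 Control count.

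Genes whose pattern over the 9 libraries was most like that of a member were found by the root mean square difference in log2 CPM, each gene centred on its mean. For Myog these were Abca8a (0.210), Adamts17 (0.241) and Tmc3 (0.249), for Myf5 Klhl31 (0.087), Ptprd (0.127) and Pmp22 (0.128), and for Myf6 Wls (0.080) and C9orf72 (0.094). Tmc3 went from 1.3 CPM in Control to 17.7 and 12 CPM in Valine and Val+PA, and Klhl31 from 3.38 to 7.18 and 4.41 CPM. Abca8a and Adamts17 were near the floor in Control, at 0.173 and 0.168 CPM. They reached the required mean of 1 CPM only through the treated groups. For Myod1 the nearest genes, Mest (0.152), Trerf1 (0.165) and Fam110b (0.169), were less alike than those of Mef2a, which were Dzip3 (0.052), Pyurf (0.052) and Ugcg (0.068). All points of such a likeness share the same libraries, including the 2 that stood apart.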

How the data were processed

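RNA was sequenced from 9 C2C12 libraries, 3 per group, grouped by their labels; per the labels' protocols the libraries were strand-specific. Per the submitters' processing notes, HISAT2, featureCounts and DESeq2 were used with the build GRCm38, and no version or setting is given. The deposited counts are whole reads per gene, not normalized. The deposited normalized table holds a signal that equals the count times 1 factor per gene and 1 per library, tested on 9235 genes with at least 200 counts, 100% within 0.5%. It was used where genes are compared per length, and in limma as an alternative.

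Symbols are from GENCODE M21, which names 52093 of 53700 IDs. Counts, filtered with filterByExpr (18415 genes left; 20584 had no count), were scaled by TMM and fitted with edgeR 4.0.16 (R 4.3.3) with its quasi-likelihood test, all 9 libraries in 1 fit and two-sided tests adjusted by Benjamini-Hochberg at 0.05. SE is the size of the log2 fold change over the root of F, and 95% intervals use t with the fit's degrees of freedom. The edgeR step for Valine against Control was tested on simulated counts with the same spread setting for every gene. The other steps were not tested in this way. The alternatives were DESeq2 1.42.0, limma-voom (limma 3.58.1), other scalings, filters and thresholds, a replicate block, and libraries left out. Removing a GC trend per library was added after the data had been seen. The trend was fitted to each library's deviations from the mean of all 9 libraries. It therefore also removes differences between groups that follow GC content.

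The members, lists and rules were chosen with earlier results of these data known. Named besides the members are, per list and comparison, the called gene with the largest rise and that with the largest fall (or, with none called, that with the smallest p), every E-protein and Id gene, and the 3 genes most like each member with at least 1 CPM; some genes that this rule names are not reported here. Replicate numbers did not pair the libraries (correlations of deviations from -0.47 to 0.28), and no 2 libraries of a group agreed within sampling noise.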

Additional observations from a re-analysis of the deposited data

How the results depend on the processing

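Recomputed under 23 other settings, the 27 log2 fold changes kept direction and call in 584 values, gained a call in 15, lost one in 9 and changed sign in 7; most calls gained or lost are given with each gene, and the cause was not tested. At a threshold of 0.01, 5092 genes were called in Valine against Control in place of 7718, and members higher in Val+PA against Control went from 4 to 2, without Myf5 and Six4; Mef2a and Mef2c then also lost their calls in Valine. In Val+PA against Valine, DESeq2 called 212 genes (members: 1 lower), no filter 763 (1 higher, 2 lower), leaving out Control 3 and Val+PA 2 604 (3 lower) and the GC trend 8, in place of 0. Without those libraries Mef2d in Valine was at 0.00 and Pax7 at -0.16, and in Val+PA against Control Pax7 was at -0.13. With each library left out in turn, log2 values that changed sign ran from -0.17 to 0.17 (Pax7, Valine against Control), -0.01 to 0.33 (Myod1) and -0.03 to 0.35 (Mef2a, both Val+PA against Control), and -0.06 to 0.13 (Myf6, Val+PA against Valine). Shares that changed sign ran, in points, from -3.36 to 0.181 (Myf5) and -0.0369 to 0.0564 (Myf6) in Valine against Control, from -0.559 to 2.1 (Myog) in Val+PA against Valine, and from -7.68 to 4.97 (Mef2a), -0.309 to 0.325 (Mef2c) and -5.28 to 7.99 (Mef2d) in Val+PA against Control. Members called higher ran from 5 to 7 in Valine and 3 to 5 in Val+PA, and all genes called from 5796 to 9244 and from 6043 to 7863. The replicate block gave 7369, 6935 and 0 genes, changed no member's call, and left Myog at 3.84 and Myf5 at 1.02 in Valine; 2 of 9 libraries correlated best with their own number in both other groups. Depth limits Myog in Control (9 to 21 counts per library) and Myf6 and Pax7 throughout (14 to 47 and 22 to 60), where 1 count is up to 0.0403 CPM. It limits Mef2c less, at 67 to 236 counts.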

Other observations

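The genes nearest in pattern to the remaining members, by the same root mean square difference in log2 CPM over the 9 libraries, were Ifit2 (0.069), Zfp97 (0.078) and Ift80 (0.090) for Mef2c, Phlda3 (0.082), Gnl1 (0.084) and Glis2 (0.085) for Mef2d, Hoxa11os (0.084), Thbs3 (0.108) and R3hcc1 (0.110) for Pax7, and Sntb1 (0.055), Mbd5 (0.057) and Cdh18 (0.067) for Six4. Sntb1, a syntrophin of the dystrophin complex, was at 15.7 ± 1.61 CPM in Control, 24.8 ± 0.488 CPM in Valine and 21.6 ± 2.54 CPM in Val+PA (SD, n = 3).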
